A study of Homo sapiens with 9 samples.

Results

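The proteasome genes and NFE2L1, a transcription factor that drives them, were followed across 9 expression arrays. Every probe set whose only annotated symbol began with PSMA, PSMB, PSMC, PSMD, PSME or PSMF, or was NFE2L1, was taken, which gave 66 of the 22283 probe sets and 40 of the 11963 genes named on the array. Of these genes, 37 belong to the proteasome, with 6 in the alpha ring of the core, 7 in its beta ring, 3 immunoproteasome subunits, 8 in the base of the cap, 6 in its lid, 4 activators or inhibitors and 3 assembly chaperones. The other genes were NFE2L1 itself and PSMC3IP and PSME3IP1, which share only the prefix. A probe set had to reach a mean signal of 53.3 to be tested, and 63 of the 66 did, so that all 40 genes had a value. The 3 below it belonged to PSMB1, PSMD4 and PSMD5, whose other probe sets passed.

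All arrays came from A673, an established line of Ewing sarcoma cells with the EWS/FLI translocation, so the groups share that fusion and 1 line. Of the arrays, 2 were from cells given a control siRNA, 2 from cells given EZH2 siRNA no.2 and 1 from cells given an EZH2 siRNA without a number in its title, all at 5 nM for 48 hours. EZH2 methylates histone H3 as the enzyme of the Polycomb repressive complex. A further 2 arrays came from cells under 100 nM TSA for 24 hours and 2 from cells under 0.01% of its solvent, DMSO, for as long; TSA (trichostatin A) inhibits histone deacetylases. The titles call the replicates biological without saying that cultures were separate, and a p here covers the spread among these samples.

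The proteasome degrades proteins tagged with ubiquitin. Its barrel-shaped core (20S) has outer alpha rings that gate entry and inner beta rings whose PSMB5, PSMB6 and PSMB7 subunits cut the chain, and its cap (19S) has a base of ATPases that unfold the substrate and a lid that removes ubiquitin. In cells exposed to interferon gamma, PSMB8, PSMB9 and PSMB10 take the place of the catalytic subunits and form the immunoproteasome, which supplies peptides for antigen presentation. NFE2L1 is held at the endoplasmic reticulum and degraded while proteasomes work, and when they are inhibited it is processed, enters the nucleus and binds antioxidant response elements (ARE) of proteasome genes together with small MAF proteins.

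These elements can be looked for in the promoters. RefSeq start-site windows on GRCh38.p14, from 250 bases before to 50 bases after the start, were found for 35 of the 40 genes and searched on both strands for the element's core, TGACNNNGC or TGAGNNNGC, in which N is any base. At least 1 match lay in 17 of 32 proteasome genes (53.1%), against 40.4% of the 7468 tested genes with a window and 33.7% of all 27305 genes with one. By subcomplex, the matches fell in 6 of 9 core genes, 6 of 13 cap genes and 1 of 3 immunoproteasome genes. The windows of proteasome genes had a median GC content of 61.7%, against 64.3% for those of all tested genes. A match is a description of the letters in the window and not a measured site of binding.

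The sequences below, 5′ to 3′ along the strand of the gene, show the element's core in capitals with 10 bases on each side, for 5 genes that the results return to (PSMA4 at chr15:78540650-78540678, PSMB5 at chr14:23034900-23034928, PSMD8 at chr19:38374507-38374535, PSMD12 at chr17:67366724-67366752 and PSME1 at chr14:24136098-24136126). In PSMB5 the match is on the other strand, so its capitals read as the reverse complement.
PSMA4: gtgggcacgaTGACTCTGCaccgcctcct
PSMB5: tctttgctagGCGTTCTCAgaattagttc
PSMD8: ggggtggtgtTGAGACAGCtgtcattttc
PSMD12: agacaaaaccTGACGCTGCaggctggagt
PSME1: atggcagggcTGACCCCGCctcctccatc

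A longer stretch, the 250 bases before the start, is shown for 1 gene each of the core beta ring, the cap lid and the immunoproteasome (PSMB3 at chr17:38752491-38752740, plus strand, PSMD3 at chr17:39980557-39980806, plus strand, and PSMB10 at chr16:67936851-67937100, minus strand). Capitals mark the ARE core and also the IRF-type motif GAAANNGAA, letters bound by interferon regulatory factors, searched on both strands. In PSMB3 and PSMD3 the capitals are an ARE core, and in PSMB10 an IRF-type motif close to the start.
PSMB3: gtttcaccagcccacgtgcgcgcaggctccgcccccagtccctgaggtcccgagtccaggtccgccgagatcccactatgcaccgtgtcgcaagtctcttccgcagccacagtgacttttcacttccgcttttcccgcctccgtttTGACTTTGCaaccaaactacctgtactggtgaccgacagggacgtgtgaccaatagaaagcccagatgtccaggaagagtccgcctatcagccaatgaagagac
PSMD3: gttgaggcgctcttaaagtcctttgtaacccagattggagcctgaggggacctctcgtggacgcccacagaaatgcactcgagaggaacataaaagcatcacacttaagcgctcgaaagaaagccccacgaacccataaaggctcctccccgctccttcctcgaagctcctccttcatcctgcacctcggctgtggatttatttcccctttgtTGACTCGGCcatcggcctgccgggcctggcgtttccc
PSMB10: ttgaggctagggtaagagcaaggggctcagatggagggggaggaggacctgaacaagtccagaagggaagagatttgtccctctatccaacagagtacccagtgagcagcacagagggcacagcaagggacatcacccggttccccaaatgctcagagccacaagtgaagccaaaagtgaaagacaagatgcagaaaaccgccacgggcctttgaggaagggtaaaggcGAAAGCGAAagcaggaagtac

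The IRF-type motif was in 6 of 32 proteasome genes (18.8%, against 9.33% of tested genes), namely PSMA4, PSMB4, PSMB8, PSMB10, PSMC2 and PSME1. The same 9 letters, GAAAGCGAA or their reverse complement, stand near the start of PSMB8 (chr6:32844032-32844060) and PSME1 (chr14:24136190-24136218), shown because both genes are known interferon targets.
PSMB8: atctgtggctTTCGCTTTCacttcctcct
PSME1: ccctaccgctTTCGCTTTCccttcgcggt

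Before the members, the arrays were compared as wholes. EZH2 checked the labels: its signals were 1130.1 and 1172 for the control siRNA, 572 and 271 for EZH2 siRNA no.2, and 681 with the unnumbered siRNA. The Ewing sarcoma markers CD99, NKX2-2, STEAP1, CCND1, NPY1R and PRKCB passed the signal filter, 6 of the 6 measured. Of the markers of other cell types, 4 of 7 measured for blood cells passed (CD3D, CD3E, HBB and CD79A, not PTPRC), 4 of 6 for fibroblasts (COL1A1, COL1A2, COL3A1 and DCN), 2 of 5 for epithelium (KRT8 and KRT18, not EPCAM) and 1 of 5 for endothelium (PECAM1, not VWF). The summed signal of the passing markers ran over the arrays from 565 to 814 for blood cells, 4803 to 7623 for epithelium and 89.9 to 139 for endothelium. The hybridisation controls had a mean log2 of 9.80 to 10.16 on the unnumbered siRNA and replicate 1 arrays and of 10.43 to 10.53 on those of replicate 2. A value in a replicate sets the arrays of that number side by side, to show what each array gave. The numbers are not taken as pairs, although the hybridisation controls went with them.

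The TSA array of replicate 1 stood apart for the members described here, so TSA medians are also given without it. The summed signal of the fibroblast markers was high on the same array, at 14100.1 against 5322.6 to 8768 on the other 8. Most of it was COL1A2 (12304.5 against 4262 to 7654). COL3A1 (908 against 182 to 603) and DCN (580 against 251 to 536) were also highest there. COL1A1 was not high (308 against 237 to 520). Its 99th percentile of signal was 9298, close to 9308 on EZH2 siRNA no.2 replicate 1 and 9422 on the unnumbered siRNA, and 10146 to 11281 on the other 6 arrays. Its GAPDH 3' to 5' signal ratio was 0.846, against 0.915 to 1.03 elsewhere, but its ACTB ratio, at 1.25, lay within the 1.03 to 1.44 elsewhere. The part of these differences in the results was not tested. In such bulk RNA, fewer cells of a type and less RNA per cell cannot be told apart.

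No tested gene passed the adjusted threshold of 0.05 in any comparison. With limma and Benjamini-Hochberg adjustment, 0 of 9100 genes (0%) passed for either EZH2 siRNA, for TSA, for DMSO against the control siRNA, or for the difference between the TSA and EZH2 siRNA no.2 effects. At an unadjusted p under 0.05 there were 520 genes for EZH2 siRNA no.2 (5.71%), 238 for TSA (2.62%), 467 for the unnumbered siRNA (5.13%), 418 for DMSO against the control siRNA (4.59%) and 163 for the difference of effects (1.79%). Of the 37 proteasome genes, 0, 0, 1, 1 and 1 were among them, in the same order. The values that follow are therefore descriptions of these arrays, read against the same values over all genes. The comparisons of both EZH2 siRNAs and of DMSO with the control siRNA share the control arrays, and the TSA and DMSO comparisons share the DMSO arrays.

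The clearest member was NFE2L1. On its probe set of highest mean signal, the control siRNA arrays gave 1323 and 1149.8, the EZH2 siRNA no.2 arrays 2712 and 2358, the unnumbered EZH2 siRNA 2519, the DMSO arrays 1641 and 1917, and the TSA arrays 2229.8 and 2023. All 3 EZH2 siRNA arrays were above the other 6, and the control siRNA arrays were the lowest of all 9. The log2 difference of EZH2 siRNA no.2 from the control siRNA was 1.02 (SE 0.23, limma adjusted p = 0.862), and it was 1.02 in replicate 1 and 1.02 in replicate 2. For the unnumbered siRNA it was also 1.02 (SE 0.28, limma adjusted p = 0.935), with 0.92 and 1.11 against the single control arrays. Neither passed after adjustment over 9100 genes.

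On the other NFE2L1 probe sets all 3 EZH2 siRNA arrays were again above both control arrays. On the probe set of next highest signal the control arrays gave 1242 and 822, EZH2 siRNA no.2 gave 1872 and 1499, and the unnumbered siRNA gave 1653 (log2 differences 0.71 and 0.69). On the third the control arrays gave 875 and 493, EZH2 siRNA no.2 gave 1199.97 and 1054, and the unnumbered siRNA gave 1279.6 (log2 differences 0.75 and 0.93), so that here the unnumbered siRNA was above both siRNA no.2 arrays. Probe sets of 1 gene share the RNA of each array and are not replicates.

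For TSA and its solvent the probe sets of NFE2L1 differed. On the probe set of highest signal all 4 TSA and DMSO arrays were below the EZH2 siRNA arrays, but on the other probe sets they overlapped them. The probe set of next highest signal gave 1112 and 1546 with DMSO and 1530 and 1169 with TSA, 2 of these being above 1 of the EZH2 siRNA no.2 arrays. The third gave 1203 and 824 with DMSO and 1445 and 951 with TSA, and the TSA array of replicate 1 was the highest of all 9 there.

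On the probe set of highest signal TSA differed from DMSO by a log2 of 0.26 (SE 0.23, limma adjusted p = 1.00), with 0.44 in replicate 1 and 0.08 in replicate 2. On the other probe sets this difference was 0.03 and 0.23, with overlapping arrays. DMSO itself stood above the control siRNA by 0.52 (SE 0.23, limma adjusted p = 0.9996), with 0.31 in replicate 1 and 0.72 in replicate 2. These groups also differ in culture, 24 hours in solvent against 48 hours of transfection, so solvent, time and transfection cannot be told apart. The TSA effect minus the EZH2 siRNA no.2 effect was −0.76 (SE 0.33, limma adjusted p = 0.999).

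**Figure D1:**
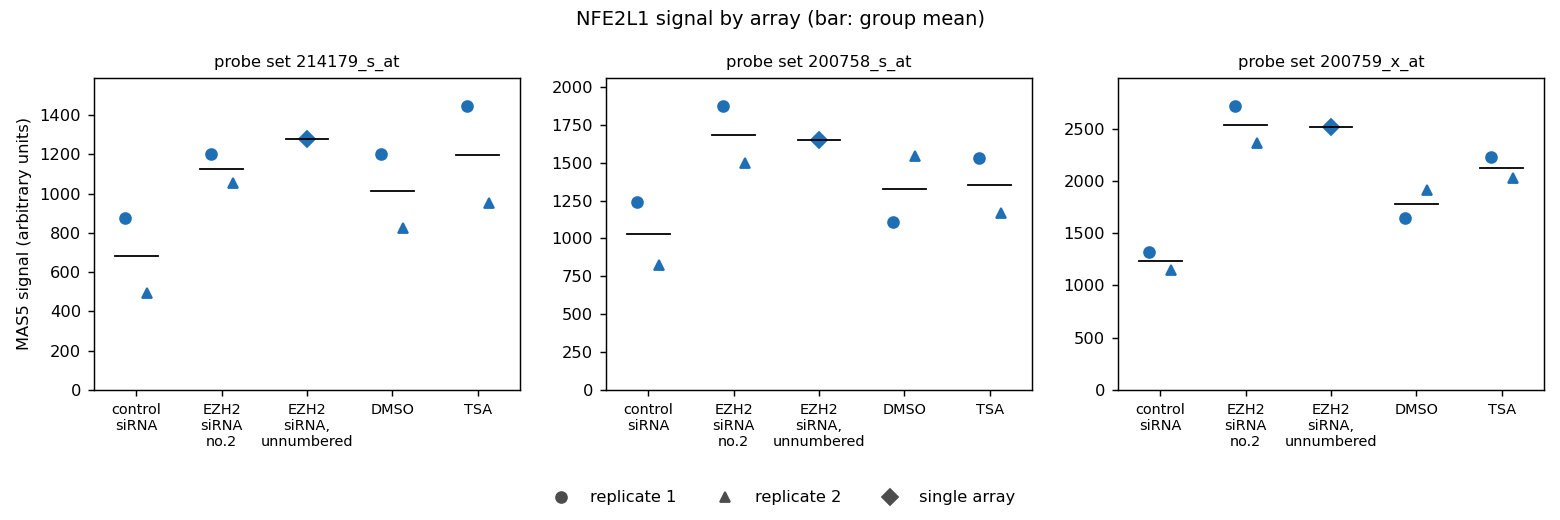
NFE2L1 signal (vertical axis, MAS5 units) on the 9 arrays for its 3 probe sets, with circles for replicate 1, triangles for replicate 2, a diamond for the single unnumbered siRNA array and a bar at each group mean. In all 3 panels the EZH2 siRNA arrays lie above both control siRNA arrays, and on the probe set of highest signal (right) they run from 2358 to 2712 against 1149.8 and 1323.

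The proteasome genes did not share the NFE2L1 pattern in the siRNA comparison. With EZH2 siRNA no.2 the median log2 difference of the 37 genes was 0.01, against 0.08 for all genes, with 20 genes above 0 and 17 below. The spread ran from −0.58 (PSMB10) to 0.47 (PSME1). The core and the cap differed in their medians, −0.10 for the 13 core genes and 0.19 for the 14 cap genes. Scaling each array to the same median moved the median of all genes from 0.08 to −0.06, so medians were also taken relative to it. Relative to all genes the core stood at −0.17 as deposited, −0.19 with equal medians and −0.06 after quantile normalization, and the cap at 0.11, 0.10 and 0.24.

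The direction for the core differed between replicates. In replicate 1 all 13 core genes were lower with EZH2 siRNA no.2 than with the control siRNA (median −0.43, from −0.80 to −0.12). In replicate 2 it was the reverse for 11 of 13 (median 0.28, from −0.05 to 0.58). The cap genes had a median of −0.11 in replicate 1, with 9 of 14 below 0, and of 0.38 in replicate 2, with all 14 above 0. Without the control siRNA array of replicate 1 the core median became 0.05 and the cap median 0.35, and without that of replicate 2 they became −0.18 and −0.06. The signs of both subcomplex medians therefore turned with 1 array.

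For single genes the EZH2 siRNA no.2 arrays overlapped the control arrays in 27 of 37 cases. In the others, 6 of the 37 genes had both arrays above both control arrays, against 22.8% of all genes, and 4 had both below, against 13.1%. The 6 were PSMC2, PSMD3, PSMD11, PSMD12, PSME1 and PSME4, of which 4 are cap genes, and the 4 were PSMB5, PSMB10, PSMD5 and PSMD10. For the cap genes this depended on the probe set. Another PSMC2 probe set had both siRNA no.2 arrays below both controls (459 and 485 against 668 and 573). Another of PSMD11 overlapped (205 and 367 against 252 and 250), and another of PSMD12 was again higher (1993 and 2102 against 1749 and 1405). The single unnumbered array lay outside the range of the control arrays for 22 of 37 genes. There 12 genes lay above both control arrays, against 39.2% of all genes, and 10 lay below both, against 28.2%. None of these shares was above the background.

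In the alpha ring, which gates the core, EZH2 siRNA no.2 gave log2 differences from −0.29 (PSMA2) to 0.19 (PSMA5). On the probe set of highest signal per gene, 3 genes were above 0 and 3 below, with overlapping arrays for all 6. Another PSMA2 probe set stood at −0.86, with all 3 EZH2 siRNA arrays below both controls. It gave 1174 and 1044 on the control siRNA arrays, 780 and 458 with EZH2 siRNA no.2 and 841 with the unnumbered siRNA. Other probe sets stood at −0.16 and −0.01 for PSMA1 and at −0.03 for PSMA7. PSMA4, which carries the ARE core shown above, had signals of 4223 and 4351 on the control siRNA arrays, 3215 and 4603 with EZH2 siRNA no.2 and 5143 with the unnumbered siRNA. Its EZH2 siRNA no.2 arrays thus lay on both sides of the control arrays. PSMA7 gave 9566 and 7473 on the control siRNA arrays, 7101 and 7786 with EZH2 siRNA no.2 and 8321 with the unnumbered siRNA.

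In the beta ring the noncatalytic PSMB3 had 3431 and 3387 on the control siRNA arrays, 1961 and 3599 with EZH2 siRNA no.2 and 2662 with the unnumbered siRNA, so that 1 siRNA no.2 array was far below the controls and the other above them. PSMB5, the chymotrypsin-like subunit that is the main target of bortezomib, had 11791 and 9035 on the control siRNA arrays, 7954 and 8755 with EZH2 siRNA no.2 and 8538 with the unnumbered siRNA. All 3 EZH2 siRNA arrays were below both controls, but the controls differed more from each other than the nearer one did from the siRNA arrays. The log2 difference was −0.31 (SE 0.24, limma adjusted p = 0.909), with −0.57 in replicate 1 and −0.05 in replicate 2.

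PSMB6, the caspase-like subunit, had 4488 and 3709 on the control siRNA arrays, 3698 and 4249.8 with EZH2 siRNA no.2 and 3807 with the unnumbered siRNA (log2 differences −0.04 and −0.10). PSMB7, the trypsin-like subunit, had 5586.5 and 4419.8 on the control siRNA arrays, 4012 and 5369 with EZH2 siRNA no.2 and 4322 with the unnumbered siRNA (−0.10 and −0.20). For both genes the EZH2 siRNA no.2 arrays overlapped the controls.

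Of the immunoproteasome genes, PSMB10 was the one whose EZH2 siRNA no.2 arrays lay apart from the controls. Its signals were 216 and 305 on the control siRNA arrays, 198 and 134 with EZH2 siRNA no.2 and 227 with the unnumbered siRNA, a log2 difference of −0.58 for EZH2 siRNA no.2 (SE 0.38, limma adjusted p = 0.881) that was −0.11 in replicate 1 and −1.06 in replicate 2. The unnumbered siRNA array lay between the control arrays. PSMB8 was flat over the siRNA arrays, at 265 and 276, then 262 and 281, then 252. PSMB9 overlapped, at 193 and 251, then 148 and 257, then 204.

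Among the cap genes, the lid scaffolds PSMD3 and PSMD12 were higher on all 3 EZH2 siRNA arrays than on both controls. PSMD3 had 809 and 686 on the control siRNA arrays, 1007 and 987 with EZH2 siRNA no.2 and 909.8 with the unnumbered siRNA (log2 differences 0.41, SE 0.33, limma adjusted p = 0.915, and 0.28). PSMD12 had 1904 and 1951, then 2545 and 2293, then 2564 (0.32 and 0.41). Both genes hold an ARE core in the window shown. PSMD8, another lid scaffold with an ARE core, went the other way, with 4191 and 3400.5, then 2511 and 3594, then 2772 (−0.33 and −0.44), and its siRNA no.2 arrays overlapped the controls.

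In the base, PSMD2, the scaffold that receives ubiquitin-like domains, had 4331 and 3146 on the control siRNA arrays, 4628 and 4254 with EZH2 siRNA no.2 and 5684 with the unnumbered siRNA. For the unnumbered siRNA this was a log2 difference of 0.62 (SE 0.28, limma adjusted p = 0.935), and for EZH2 siRNA no.2 it was 0.26 with overlapping arrays. The ATPase PSMC3 showed how far a control pair could spread, with 7982 and 2996 for the control siRNA. Its EZH2 siRNA arrays, at 7692, 5181 and 7325, all fell inside that range.

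The activator PSME1 (PA28 alpha), induced by interferon, had 2455.5 and 2198 on the control siRNA arrays, 2613 and 4001 with EZH2 siRNA no.2 and 2974 with the unnumbered siRNA. All 3 EZH2 siRNA arrays were above both controls, by a log2 of 0.47 for siRNA no.2 (SE 0.28, limma adjusted p = 0.870) with 0.09 in replicate 1 and 0.86 in replicate 2. PSME4 (PA200), a nuclear activator, had 761 and 1066.1, then 1084 and 1279, then 1066.3 (0.38 for siRNA no.2), so 1 control array was level with the unnumbered one. Another PSME4 probe set, at 0.55, overlapped for siRNA no.2. A further one, at 0.56, had all 3 EZH2 siRNA arrays above both controls (564 and 781, then 873 and 1118, then 859). PSME3 (PA28 gamma) and the inhibitor PSMF1 overlapped for siRNA no.2, at 0.14 and 0.03. PSME2, the partner of PSME1, shares its probe set with another gene and was not taken. That probe set gave 3459 and 2637 on the control siRNA arrays, 1780 and 2500 with EZH2 siRNA no.2 and 2518 with the unnumbered siRNA. Its EZH2 siRNA arrays were thus below both controls, unlike those of PSME1. PSMA6 of the alpha ring was left out for the same reason.

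The assembly chaperones of the base had a median of −0.25 with EZH2 siRNA no.2, against 0.08 for all genes. PSMD10 (gankyrin), which also binds cell cycle regulators, had 1805 and 1524 on the control siRNA arrays and 1488 and 1137 with EZH2 siRNA no.2, yet 2252 with the unnumbered siRNA. The 2 EZH2 siRNAs thus lay on opposite sides of the controls, at −0.34 (SE 0.24, limma adjusted p = 0.885) and 0.44 (SE 0.30, limma adjusted p = 0.935). PSMD5 was lower with both, at −0.25 and −0.29, and PSMD9 stood at −0.08 and −0.32. The PSMD5 values are those of its probe set of highest signal, and another, below the filter, gave 0.31 for siRNA no.2.

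**Figure D2:**
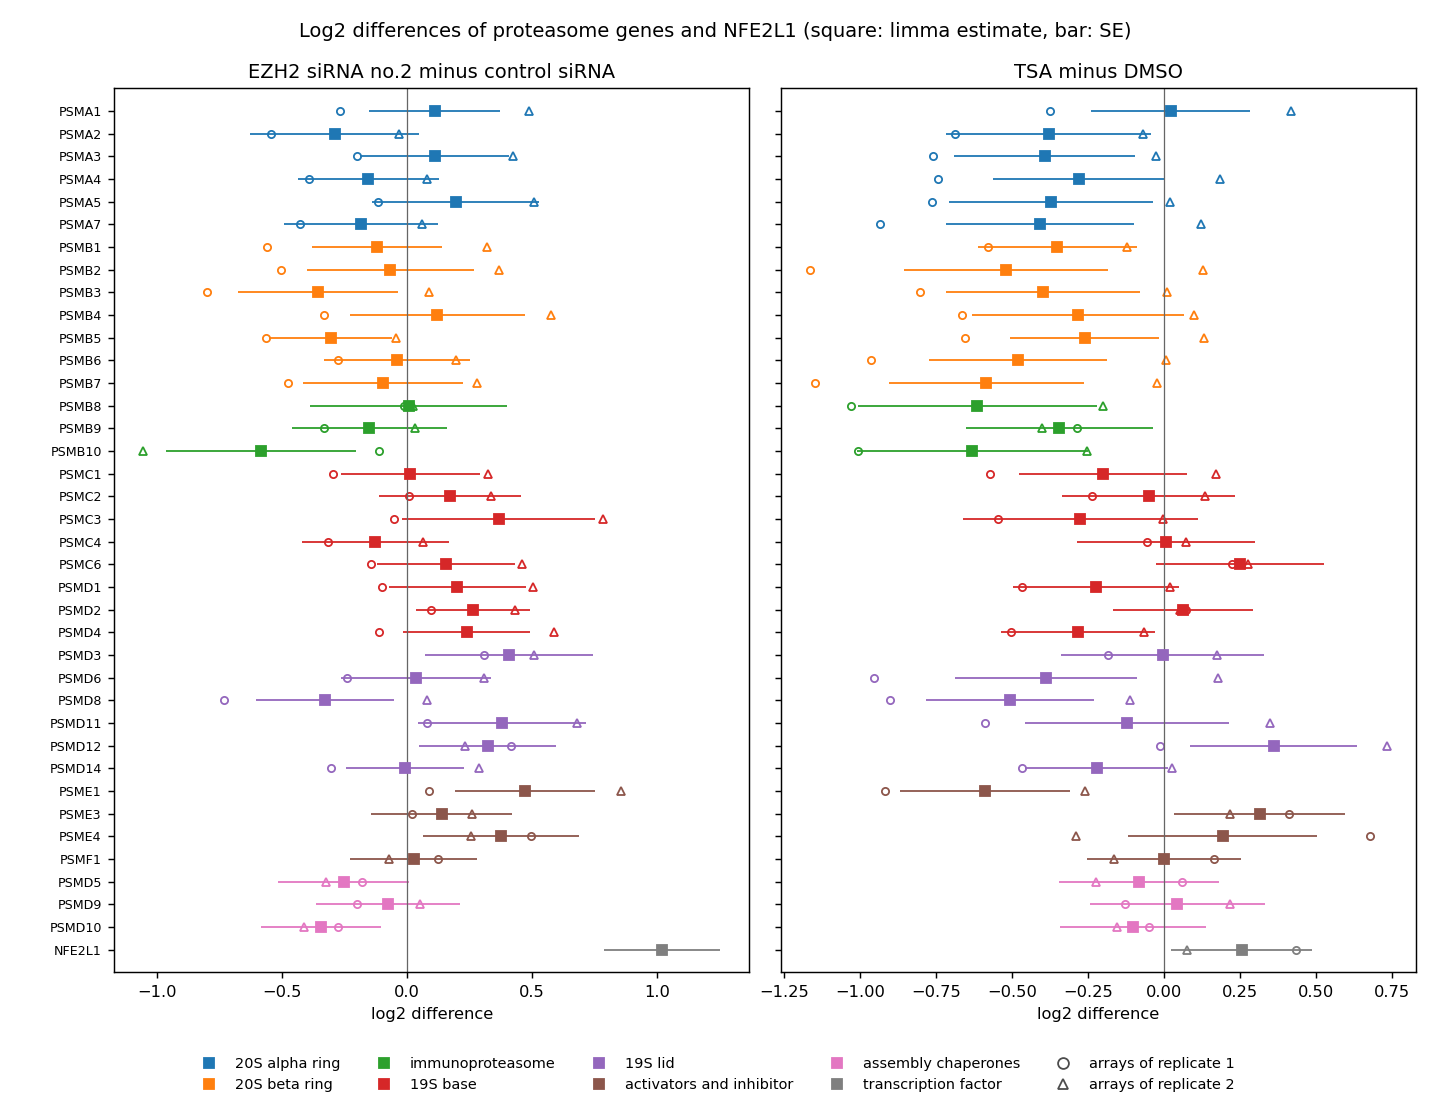
Log2 differences of the 37 proteasome genes and NFE2L1, grouped by colour into subcomplexes, for EZH2 siRNA no.2 minus control siRNA (left) and TSA minus DMSO (right), with squares for the limma estimate, bars for its standard error, open circles for the difference between the arrays of replicate 1 and open triangles for that of replicate 2. NFE2L1 stands apart at 1.02 on the left, where its replicate markers are hidden by the square, and on the right the circles of all 13 core genes lie below 0 while the triangles lie around it.

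TSA gave another pattern, in which the core genes were low on 1 of the 2 TSA arrays. The median log2 difference of TSA from DMSO was −0.27 for the 37 genes, −0.38 for the core and −0.16 for the cap, against 0.03 for all genes, and 12 of 13 core genes and 10 of 14 cap genes were below 0. Medians for the core and cap kept their sign with equal medians and after quantile normalization. In replicate 1 all 13 core genes were lower with TSA (median −0.76, from −1.17 to −0.37), and in replicate 2 the median was 0.02 (from −0.12 to 0.42) with 4 of 13 below 0. The cap medians were −0.47 and 0.10. Without the TSA array of replicate 1 the core median became 0.01 and the cap median 0.14, and without that of replicate 2 they were −0.84 and −0.46.

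That array was the lowest of all 9 for 24 of the 37 proteasome genes (64.9%), against 14.3% of all genes. It was the lowest for 11 of 13 core genes, 10 of 14 cap genes and all 6 lid genes, but for 1 of 3 immunoproteasome genes, 1 of 4 activators and inhibitors and 1 of 3 chaperones. Among the probe sets that were not used to represent a gene, it was the lowest for 5 of 7 of the core and 3 of 6 of the cap. Median deviations from each gene's mean over the 9 arrays were −0.69 for the core and −0.45 for the cap on this array, and 0.03 for all genes. On the other 8 arrays they ran from −0.19 to 0.22 for the core and from −0.23 to 0.18 for the cap. The lowest core value among those 8 was on EZH2 siRNA no.2 replicate 1.

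The cap stood above the core on that array by 0.25, as on EZH2 siRNA no.2 replicate 1 (0.29), whereas the other TSA array gave −0.06 and the DMSO arrays −0.25 and −0.12. The control siRNA arrays gave 0.003 and −0.17, EZH2 siRNA no.2 replicate 2 gave −0.09 and the unnumbered siRNA gave 0.09. Both TSA arrays were thus above both DMSO arrays, by far more in replicate 1 than in replicate 2, while the EZH2 siRNA no.2 and control arrays overlapped. With 2 arrays a group this was not tested.

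**Figure D3:**
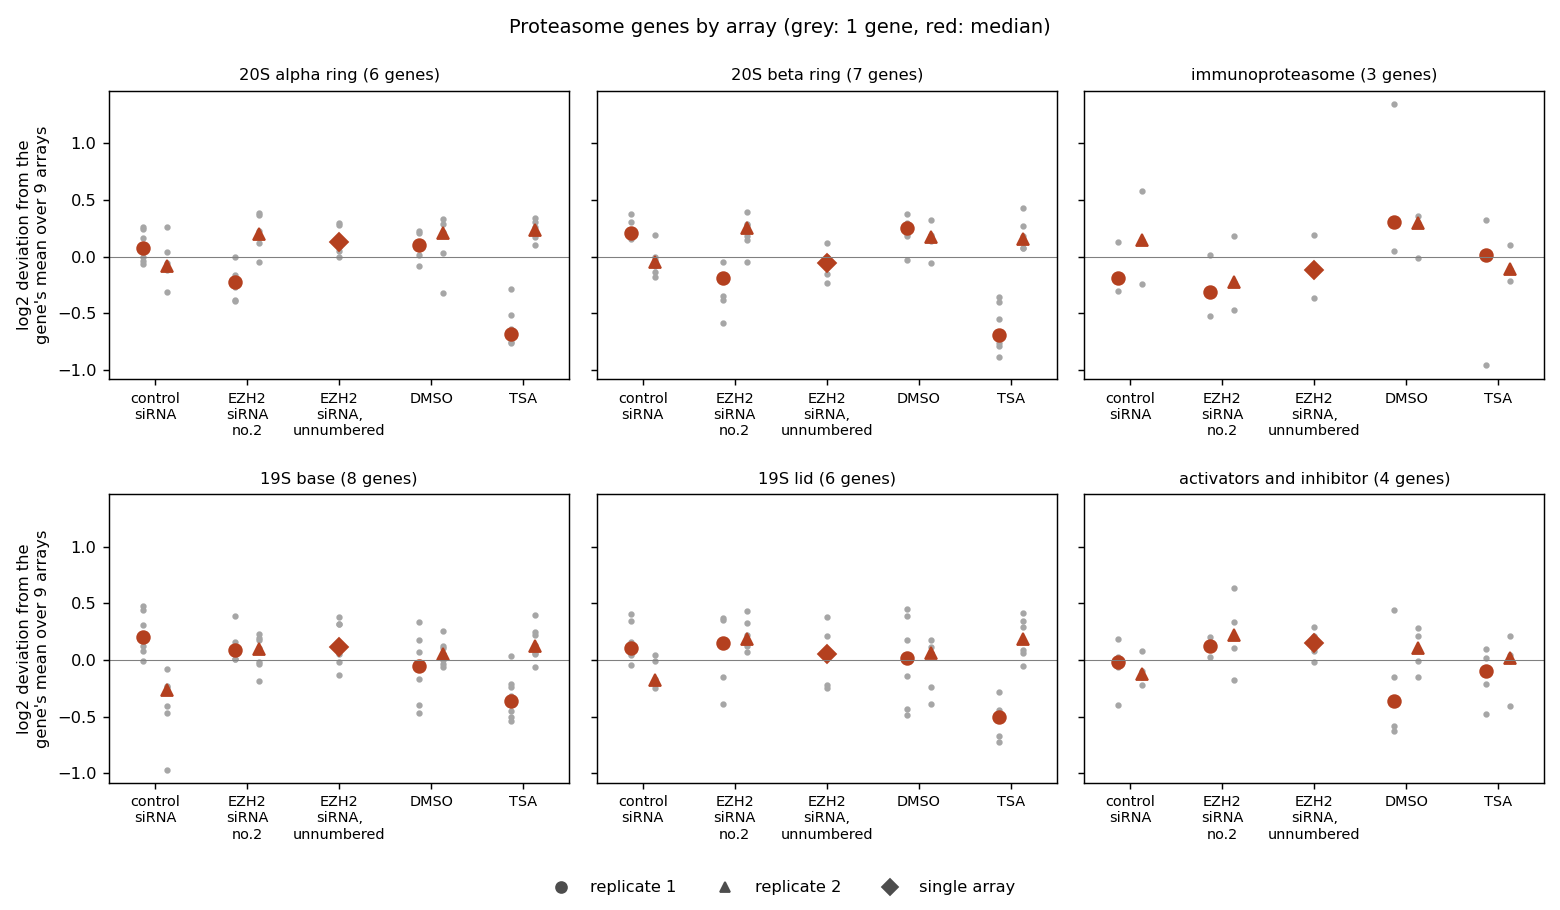
Deviation of each proteasome gene from its mean over the 9 arrays (vertical axis, log2), by array and subcomplex, with grey dots for genes and red markers for the median (circles for replicate 1, triangles for replicate 2, a diamond for the unnumbered siRNA). The TSA array of replicate 1 lies lowest in the alpha ring, beta ring, base and lid panels, at a core median of −0.69, and not in the immunoproteasome or activator panels.

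No proteasome gene had a limma p under 0.05 for TSA against DMSO, and the lowest adjusted p of the members was 1.00. Both TSA arrays were below both DMSO arrays for 8 of 37 genes, against 13.1% of all genes, and above for 1, against 15.8%. The 8 were PSMB1, PSMB7, PSMB9, PSMC3, PSMD4, PSMD8, PSME1 and PSMD10, and the 1 was PSMD2. In replicate 2 the log2 difference of the 8 ran from −0.40 (PSMB9) to −0.0034 (PSMC3).

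PSMB7 is an example. Its signals were 5411 and 5087 with DMSO and 2429.9 and 5009 with TSA, a log2 difference of −0.58 (SE 0.32, limma adjusted p = 1.00) made up of −1.15 in replicate 1 and −0.02 in replicate 2. PSMB6 gave 4397 and 4247 with DMSO and 2242 and 4268 with TSA (−0.48). PSMB5 gave 11138.5 and 8701 with DMSO and 7065 and 9548 with TSA (−0.26). All 3 catalytic genes thus had their lowest signal of the 9 arrays on the TSA array of replicate 1, and on the other TSA array a signal within the range of the control siRNA and DMSO arrays.

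The noncatalytic beta subunits and the alpha ring repeated this. PSMB2 gave 7473 and 6321 with DMSO and 3318 and 6911 with TSA (log2 −0.52, and 0.0079 without the TSA array of replicate 1), but its other probe set stood at 0.72. PSMB1 gave 7856 and 7927 with DMSO and 5248 and 7288 with TSA (−0.35). PSMA7 gave 9300.2 and 9379 with DMSO and 4853 and 10208 with TSA (−0.41). PSMA3 gave 5214 and 5509 with DMSO and 3071 and 5410.5 with TSA (−0.39), and in each of these genes 1 TSA array was low and the other close to DMSO. PSMA1 differed by 0.02, and another of its probe sets by −0.51.

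In the lid, PSMD8 gave 4314 and 3719 with DMSO and 2298 and 3439 with TSA (log2 −0.51, SE 0.28, limma adjusted p = 1.00), with −0.90 in replicate 1 and −0.11 in replicate 2. PSMD6 gave 3402 and 2099.5 with DMSO and 1743 and 2381 with TSA (−0.39), with overlapping groups. PSMD12, on its probe set of highest signal, differed in replicate 2 instead, with 1453 and 1493 with DMSO and 1441 and 2502 with TSA (0.36). Its other probe set gave 1740 and 1500 with DMSO and 1187 and 1950 with TSA (−0.08), so there the TSA array of replicate 1 was low. For PSMD11 the estimate was −0.12, and another of its probe sets gave 0.39.

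PSME1 had the smallest p of the members for TSA. It gave 3481 and 2312 with DMSO and 1833 and 1927 with TSA, a log2 difference of −0.59 (SE 0.28, limma adjusted p = 1.00) with −0.92 in replicate 1 and −0.26 in replicate 2. Both TSA arrays were the lowest of the 9, and the DMSO array of replicate 1 was higher than all but 1. Since EZH2 siRNA no.2 stood above its control, the TSA effect minus the siRNA effect was −1.06 (SE 0.40, limma adjusted p = 0.999), the one proteasome gene with an unadjusted p under 0.05 for this difference. PSME3 and PSME4 stood at 0.32 and 0.20 with TSA, and PSMF1 at 0.0003, all with overlapping arrays. The chaperones PSMD5, PSMD9 and PSMD10 stood at −0.08, 0.04 and −0.10. Without the TSA array of replicate 1, PSME1 stood at −0.55, PSME3 at 0.53, PSME4 at 0.14, PSMF1 at 0.016, PSMD5 at −0.35, PSMD9 at 0.42 and PSMD10 at −0.16.

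The immunoproteasome genes had the lowest TSA median of the subcomplexes, −0.61. All 3 were below 0 in both replicates, with medians of −1.01 in replicate 1 and −0.25 in replicate 2. For PSMB8, but not PSMB9 or PSMB10, 1 DMSO array was far above the other. PSMB8 gave 882 and 329 with DMSO and 419.9 and 283 with TSA (log2 −0.61, SE 0.39, limma adjusted p = 1.00), and without the DMSO array of replicate 1 the difference was 0.066. That array held the highest PSMB8 signal of all 9, the control siRNA and EZH2 siRNA arrays lying between 252 and 281. DMSO stood above the control siRNA by 0.94 (SE 0.39, limma adjusted p = 0.9996), with 1.65 in replicate 1 and 0.23 in replicate 2. PSMB9 gave 282 and 279.96 with DMSO and 226 and 206 with TSA (−0.34), groups that did not overlap. PSMB10 gave 203 and 257 with DMSO and 88.6 and 212 with TSA (−0.63), with the lowest of the 9 arrays again the TSA array of replicate 1. Without that TSA array the median of the 3 stood at −0.44 relative to all genes, whereas the core stood at −0.02 and the cap at 0.10.

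**Figure D4:**
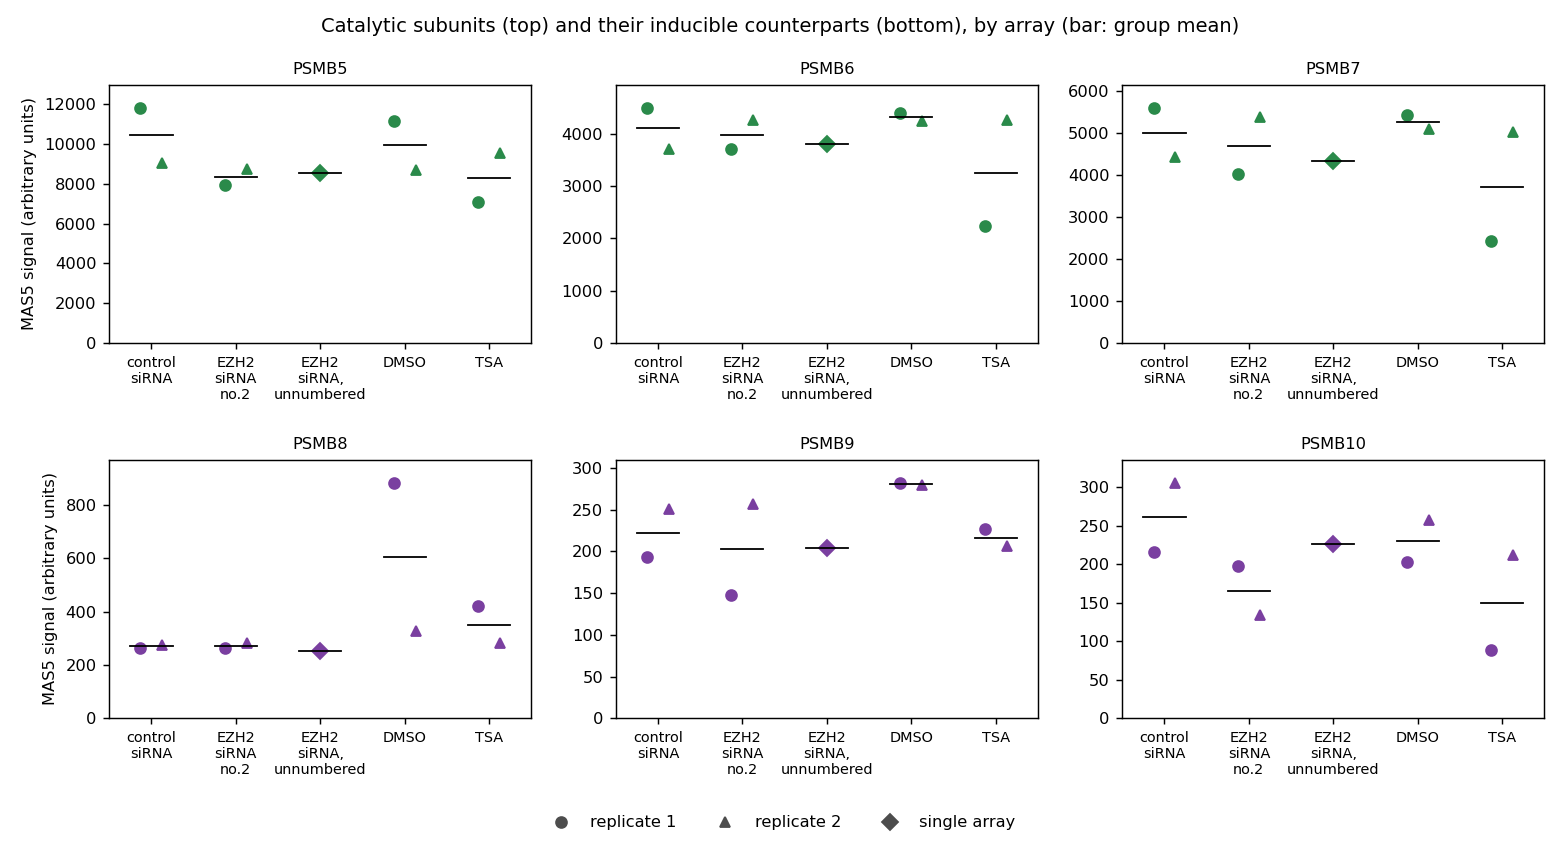
Signals (vertical axes, MAS5 units, each starting at 0) of the catalytic subunits PSMB5, PSMB6 and PSMB7 (top) and of their inducible counterparts PSMB8, PSMB9 and PSMB10 (bottom) on the 9 arrays, with circles for replicate 1, triangles for replicate 2, a diamond for the unnumbered siRNA and a bar at each group mean. The TSA array of replicate 1 is the lowest of PSMB5, PSMB6, PSMB7 and PSMB10, and the DMSO array of replicate 1 is the highest of PSMB8 at 882.

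Against the control siRNA, DMSO left the proteasome genes near the rest of the array. The median log2 difference was 0.08 for the 37 genes and 0.05 for all genes, with 6 genes having both DMSO arrays above both control arrays, against 21.3% of all genes, and 2 (PSMD9 and PSMD12) having both below, against 12.9%. PSMB8 was the 1 proteasome gene with an unadjusted limma p under 0.05. Next after it and NFE2L1 by p came PSMD12 (−0.38) and PSMC4 (−0.37). The other probe set of PSMD12 stood at 0.04, with overlapping arrays. For PSMC4 the DMSO signals of 1394 and 1913 overlapped the control signals of 2573 and 1742.

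Genes with and without the ARE core were also set side by side. The median log2 difference for EZH2 siRNA no.2 was −0.07 in the 17 proteasome genes with a match and 0.11 in the 15 without. For TSA the medians were −0.26 and −0.12, and without the TSA array of replicate 1 they were 0.01 and 0.14. Among genes with a match, PSMD3 and PSMB5 had their EZH2 siRNA arrays on opposite sides of the controls. No test was made of these lists.

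Other genes around the proteasome were taken from lists of known function. Of 16 assembly and associated factors 13 were tested, of which 0 passed the adjusted threshold in any comparison and 1 had a limma p under 0.05 for EZH2 siRNA no.2. This was ZFAND5, a zinc finger protein that stimulates the proteasome, with 2075 and 1678 on the control siRNA arrays, 2986 and 3035 with EZH2 siRNA no.2 and 3748 with the unnumbered siRNA (log2 0.68, SE 0.25, limma adjusted p = 0.862). The core chaperone POMP followed the core on the TSA arrays, with 5824 and 6788 with DMSO and 3369 and 7313 with TSA (−0.34). PAAF1, a negative regulator of assembly, stood at −0.48 with TSA, and at −0.86 without the TSA array of replicate 1, where POMP stood at 0.22. For PAAF1 the DMSO arrays were high, at a log2 of 1.01 above the control siRNA. Its signals were 513.5 and 385.7 for the control siRNA, 964.7 and 886.7 with DMSO and 863.1 and 499.7 with TSA. The core chaperone PSMG2 stood at −0.40 with EZH2 siRNA no.2.

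Of 16 genes that process, degrade or partner NFE2L1, 13 were tested and 0 had a limma p under 0.05 for EZH2 siRNA no.2 or TSA. Their median was 0.06 for EZH2 siRNA no.2 and 0.05 for TSA, or 0.22 for TSA without the array of replicate 1. The relative NFE2L3 had the lowest p for EZH2 siRNA no.2, with 72.2 and 114 on the control siRNA arrays, 127 and 173 with siRNA no.2 and 128 with the unnumbered siRNA (log2 0.58), and OGT stood at 0.36. NGLY1, the enzyme that removes sugars from NFE2L1, had 809 and 591.5 with DMSO and 424 and 538 with TSA (−0.51), and NFE2L2 stood at 0.28.

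Antioxidant genes, which share the element with proteasome genes, were tested for 8 of 11 listed. For EZH2 siRNA no.2 their median was 0.25 with 7 of 8 above 0, and for TSA it was −0.23 with 7 of 8 below 0, against 0.08 and 0.03 for all genes. Without the TSA array of replicate 1 the TSA median was 0.02, with 3 of 8 below 0. SLC7A11, the cystine transporter, gave 682 and 662 on the control siRNA arrays, 1142 and 1755 with EZH2 siRNA no.2, and 1126 with the unnumbered siRNA (log2 1.05, SE 0.27, limma adjusted p = 0.862). GCLM, the regulatory subunit of glutathione synthesis, gave 1096 and 838, then 1462 and 1493, then 1374 (0.61). All 3 EZH2 siRNA arrays were above both controls for both genes. They were the only 2 of the 8 with both siRNA no.2 arrays above both controls, against 22.8% of all genes. The unnumbered array was above both for 5 of 8, against 39.2%. TXNRD1 stood at −0.32 with siRNA no.2, with 1 array below both controls and 1 above, and at 0.46 with the unnumbered siRNA. It gave 3344 and 2502.5 on the control siRNA arrays, then 3390 and 1581, then 3990. With TSA the lowest p were those of HMOX1 (−0.81) and FTL (−0.29). Without the TSA array of replicate 1 these 2 genes stood at 0.05 and −0.06.

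Of 18 antigen processing genes 14 were tested, with a median of −0.13 for EZH2 siRNA no.2 and 0.14 for TSA, and 0 had a limma p under 0.05 in these comparisons. The lowest p for EZH2 siRNA no.2 were those of CIITA (−0.54) and TAPBP (−0.38), and for TSA those of TAPBP (−0.36) and HLA-B (0.31). With TSA the immunoproteasome genes and their antigen processing neighbours thus had medians of opposite sign, but without the TSA array of replicate 1 that of the neighbours was 0.008 and TAPBP stood at −0.73. Of 22 genes of ubiquitin supply and shuttling 13 were tested. Their medians were −0.01 for EZH2 siRNA no.2 and −0.003 for TSA (0.002 without the TSA array of replicate 1). In these comparisons 0 had a limma p under 0.05. RAD23B (0.40) and FAF2 (−0.25) had the lowest p for EZH2 siRNA no.2, and UBQLN2 (0.55) and UBQLN4 (0.59), both ubiquitin shuttling factors, for TSA. For UBQLN4 the DMSO arrays were low, at a log2 of −0.88 from the control siRNA. Its signals were 144.4 and 141.6 for the control siRNA, 83.6 and 51.5 with DMSO and 121.9 and 103.5 with TSA.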

How the data were processed

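The deposited intensity values are MAS5 signals made by the authors, per the submitters' processing notes. The MAS5 version and its scaling are not given in the sources used here. Each signal became log2(signal + 25.1), the pseudocount being the 20th percentile of all values. Probe sets with 1 gene symbol (19065) were kept, those with a mean signal under the 30th percentile (53.3) dropped, and the brightest remaining probe set of a gene, by mean, stood for it, which left 9100 genes. A fold change on this scale understates low genes.

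One limma 3.58.1 fit of group means in R 4.3.3 took the 9 arrays together (eBayes with trend, 4 residual and 7.40 prior degrees of freedom), two-sided, with Benjamini-Hochberg adjustment at 0.05. The single array of the unnumbered siRNA was assumed to vary like the groups of 2. The fit was tested on simulated data with independent noise for each gene. Those data held no shift of a whole array, so the test does not cover such shifts. An added check, chosen after seeing the data, took medians by subcomplex under other scalings and without single arrays, and medians of the lists without the TSA array of replicate 1.

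The members and lists were chosen with earlier results of these data known. Named were NFE2L1, EZH2, the catalytic pairs, the activators and assembly factors, the 8 members of lowest p for EZH2 siRNA no.2 and for TSA and the 4 for each other comparison, members below the filter or with discordant probe sets, and the 2 genes of lowest p per list. Other genes were named after their values were seen. Symbols came from the platform annotation, and all 40 were current in RefSeq. One further promoter motif is not reported here. The number of arrays limits the precision.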

Additional observations from a re-analysis of the deposited data

How the results depend on the processing

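The alternatives were pseudocounts of 5.42 and 87.2, a signal filter of 148 or none, all probe sets, equal array medians, quantile normalization, eBayes without trend, a replicate block and leaving out single arrays. In all of them 0 genes passed the adjusted threshold. Of 45 medians, 44 moved by less than the pooled SD of the array medians within groups (0.24), and of 391 single-gene values 378 kept their sign. That SD takes in the spread of the TSA arrays (−0.45 and 0.13 for the 37 genes). It is large beside the medians of the 37 genes, −0.27 to 0.08 over the comparisons. A median could change sign within it, so the count of 44 does not show that the medians were stable. The TSA median of the 37 proteasome genes ran from −0.48 to 0.016 when single arrays were left out, the highest without TSA replicate 1. TSA minus DMSO for PSMB2 ran from −1.05 to 0.0079, turning without TSA replicate 1, and for PSMB8 from −1.29 to 0.066, turning without DMSO replicate 1. The signs of 4 genes that were near 0 for EZH2 siRNA no.2 also turned. When single arrays were left out, PSMB6 ran from −0.18 to 0.095 and PSMB7 from −0.31 to 0.11, above 0 without control siRNA replicate 1 or EZH2 siRNA no.2 replicate 1. PSMB9 ran from −0.50 to 0.20, above 0 without control siRNA replicate 2 or EZH2 siRNA no.2 replicate 1. PSMB8 ran from −0.039 to 0.050, below 0 without control siRNA replicate 1 or EZH2 siRNA no.2 replicate 2. Quantile normalization turned PSMB6 (0.0051) and PSMB8 (−0.083), and equal array medians turned PSMB8 (−0.13). The median of the 37 genes also changed sign with equal array medians or without a control siRNA array, running from −0.13 to 0.14 for EZH2 siRNA no.2, −0.09 to 0.21 for the unnumbered siRNA and −0.04 to 0.22 for DMSO. NFE2L1 stayed between 0.88 and 1.12 for EZH2 siRNA no.2 and between 0.91 and 1.11 for the unnumbered siRNA, with limma adjusted p from 0.418 to 0.996 and from 0.64 to 0.98. Deviations of same-numbered arrays correlated at r = 0.053 to 0.377, but each comparison has only 2 pairs, so the numbers were not taken as pairing, although the hybridisation controls also went with them. With the replicate block, which drops the unnumbered array, NFE2L1 stood at 1.02 (limma adjusted p = 0.418) and the median of the proteasome genes at 0.01 for EZH2 siRNA no.2, and at −0.27 for TSA. With 2 arrays a group, a list's sign can be set by 1 array, as it was for the core. MAS5 signals came without detection calls, so low signals such as those of PSMB9 and PSMB10 have no call of presence.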

Other observations

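Genes that only share the prefix were measured with the members. PSMC3IP, a factor of meiotic recombination, gave 431 and 535 on the control siRNA arrays, 436 and 658 with EZH2 siRNA no.2, 624 with the unnumbered siRNA, 468 and 586 with DMSO and 519.5 and 730.5 with TSA. The TSA arrays overlapped the DMSO arrays, at a log2 difference of 0.23. PSME3IP1, a binding partner of PSME3, gave 517 and 308 on the control siRNA arrays, 480.02 and 335 with EZH2 siRNA no.2, 278 with the unnumbered siRNA, 553 and 434 with DMSO and 557 and 332 with TSA. Here the replicate 1 array was the higher in each group of 2.

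Probe sets of 1 gene differed in sign by over 0.5 on the log2 scale for 4 genes in the DMSO comparison with the control siRNA (PSMB2, PSMC2, PSMC3IP and PSME4), and for 3 in each of the others. Those 3 were PSMC2, PSMC3IP and PSMD5 for EZH2 siRNA no.2, PSMA1, PSMB2 and PSMD11 for TSA, and PSMB1, PSMB2 and PSME3 for the unnumbered siRNA. PSMB2 had the widest gap with TSA, from −0.52 to 0.72.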
